A study of Mus musculus with 12 samples.

Results

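The region described here is the stretch of mouse chromosome 11 that surrounds Col1a1, from 70 to 120 Mb of the GRCm38 genome. Its members are all exon intervals of the deposited tables that start in that stretch, each interval taken once, with the 55 exons of Hoxb genes left out. This gave 16486 of 347091 exon intervals in all, and 9278 of them (56.3%) overlap another exon, so neighbouring rows can hold the same reads. Summed per gene over non-overlapping exons, the exons belong to 1490 of 37086 genes. Of these genes, 742 had enough counts to be tested and 748 did not, and 390 of the latter had no count in any library.

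The study compared RNA from wild-type C57bl/6 mice (WT) with RNA from a strain labelled Col1a1-MLL/ENL (MLL), in haematopoietic stem cells (HSC) and in pre-granulocyte-macrophage progenitors (preGM), with 3 libraries in each of the 4 groups. HSC had been sorted as lineage-negative cells with Sca1, Kit and CD150 but without CD48, and preGM as lineage-negative cells with Kit but without Sca1, CD150, CD105, CD41 and CD16/32. WT and MLL cells alike spent the following 48 h in culture: the medium was OptiMEM plus 10% serum, 1 µg/ml of doxycycline was present for both genotypes, and the cytokines were IL3 and G-CSF, each at 5 ng/ml, with SCF at 10 to 50 ng/ml. Every MLL library received doxycycline, so an effect of the fusion and any other difference between the strains cannot be told apart. Nothing in the labels ties replicates to separate animals, so p-values measure the spread between these libraries only, which may be technical.

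MLL-ENL joins the amino-terminal part of the chromatin regulator MLL (Kmt2a) to ENL (Mllt1), a reader of acetylated histones, and causes leukaemia. Col1a1 encodes a chain of type I collagen, and its flank is a widely used landing site for doxycycline-inducible transgenes. Genes near an inserted construct are inherited together with it, so in a strain made from another mouse strain's embryonic stem cells the surrounding stretch can keep that strain's sequence through many crosses. The labels used here do not give the strain in which the construct was made. The comparison asks how MLL and WT libraries differ along this stretch in both cell types, which share no library.

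The sequences below are those of exons whose counts carry the results, read from the GENCODE M21 transcripts (GRCm38). The exons of AA465934, the C030037D09Rik exon with more counts in MLL cells and the stretch before C030037D09Rik were chosen after their values were seen. The first is the coding start of Elobl, a gene related to elongin B, which was read in MLL libraries and almost not at all in WT libraries. Its 300 bases come from chr11:88964936-88965235 on the minus strand, in an exon that spans 88964658 to 88965273, and the capitals mark the start codon.
Elobl: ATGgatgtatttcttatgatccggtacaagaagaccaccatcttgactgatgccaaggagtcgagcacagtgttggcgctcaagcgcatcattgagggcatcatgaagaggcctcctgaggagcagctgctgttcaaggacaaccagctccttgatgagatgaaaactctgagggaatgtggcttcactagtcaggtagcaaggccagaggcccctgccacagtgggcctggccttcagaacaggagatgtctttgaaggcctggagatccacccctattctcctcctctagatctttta

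The non-coding gene C030037D09Rik is shown by an exon whose counts rose in MLL cells (chr11:88720406-88720572) and by the first 300 bases of its last exon (chr11:88728159-88728458, of an exon that ends at 88728893), whose counts were lower in MLL HSC. Both are on the plus strand.
C030037D09Rik exon with more counts in MLL: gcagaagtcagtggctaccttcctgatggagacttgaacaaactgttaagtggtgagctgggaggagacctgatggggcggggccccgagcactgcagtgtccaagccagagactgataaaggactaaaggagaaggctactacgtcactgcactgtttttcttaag
C030037D09Rik last exon: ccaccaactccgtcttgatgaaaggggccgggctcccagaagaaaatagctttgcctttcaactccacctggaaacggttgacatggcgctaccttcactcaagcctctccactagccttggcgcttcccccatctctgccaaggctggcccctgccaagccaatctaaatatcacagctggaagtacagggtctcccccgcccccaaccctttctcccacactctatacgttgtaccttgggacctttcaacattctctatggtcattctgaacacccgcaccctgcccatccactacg

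AA465934 is a processed transcript without a known protein. It supplied 13 of the 28 exons of the stretch that passed in both cell types in the same direction, as overlapping forms, more than any other gene. Its internal exon at chr11:83291967-83292097 and its last exon at chr11:83294515-83294632 are shown, both on the plus strand.
AA465934 internal exon: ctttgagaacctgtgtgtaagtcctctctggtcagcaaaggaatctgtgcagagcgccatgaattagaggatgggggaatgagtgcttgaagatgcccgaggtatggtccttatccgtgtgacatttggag
AA465934 last exon: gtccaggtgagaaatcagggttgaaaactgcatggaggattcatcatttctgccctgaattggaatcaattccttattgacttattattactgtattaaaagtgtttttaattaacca

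Gm16342, annotated as a unitary pseudogene, is shown by its exon at chr11:102743196-102743240 (plus strand), without a count in any WT library. Cuedc1, whose protein carries a ubiquitin-binding CUE domain, is shown by the coding bases chr11:88187041-88187114 (plus strand), and the capitals mark the part that both annotated forms of that exon hold.
Gm16342: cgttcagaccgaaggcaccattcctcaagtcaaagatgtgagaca
Cuedc1: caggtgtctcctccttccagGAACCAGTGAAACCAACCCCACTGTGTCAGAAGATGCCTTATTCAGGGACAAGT

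The WT HSC libraries held 14.5 to 18.1 megacounts in genes and the MLL HSC libraries 19 to 23.4. Those of preGM were deeper, with 34.7 to 44.5 megacounts in WT and 38.4 to 50.3 in MLL. Genes of the stretch held 4.65% to 4.74% of the counts in WT HSC and 4.53% to 4.59% in MLL HSC. In preGM they held 5.27% to 5.48% in WT and 5.54% to 6.28% in MLL. The libraries WT preGM replicate 2 and MLL preGM replicate 1 stood apart from the others of their groups. Their counts differed from those of other replicates by a chi-square per degree of freedom of 442 to 555, against 17.0 to 32.4 for HSC pairs, and results are therefore also given without them. Ly6a (Sca1) and Slamf1 (CD150) were higher in every HSC library than in any preGM library, and Mpo, Elane and Ctsg, neutrophil granule genes, were higher in every preGM library. Cd48, absent from the HSC gate as a protein, had a mean of 111 CPM (counts of a gene scaled to library size) in WT HSC and 5.67 in MLL HSC, and Fcgr3, a gene of CD16, had 208 CPM in WT preGM and 36.1 in MLL preGM. The stromal genes Col1a1, Col1a2 and Col3a1 together had 0.739 to 2.18 CPM in WT HSC and 4.72 to 8.96 in MLL HSC, and 0.0570 to 0.628 and 1.96 to 2.32 CPM in preGM. In HSC this rise was that of Col1a2 alone, from a mean of 0.991 to 6.75 CPM, while Col1a1 and Col3a1 had lower means in MLL HSC, and Col3a1 was at 0 in preGM. The erythroid gene Slc4a1 and the epithelial genes Krt14, Krt15 and Krt19 were at 0 in every library. Some other genes listed for such lineages were present. The platelet genes Itga2b and Itgb3 had means of 41.0 and 32.6 CPM in WT HSC and 3.82 and 3.13 CPM in WT preGM. The epithelial gene Krt10 had 11.9 and 7.64 CPM in these groups, and the lymphoid gene Cd79b 48.8 and 69.5 CPM. The other listed lymphoid gene, Ikzf3, was at 0 in every HSC library and had means of 0.185 and 0.0601 CPM in WT and MLL preGM. Krt17, also listed as epithelial, had at most 0.0354 CPM in any library. The part of the genotype differences of marker genes in the results below was not tested. In bulk libraries, fewer cells of a type and less RNA per cell cannot be told apart.

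Col1a1 itself (chr11:94936224-94953042) lay too low to be tested, with means of 0.304 and 0.130 CPM in WT and MLL HSC and 0.227 and 0.372 CPM in WT and MLL preGM. No intron of Col1a1 had a count in any library. Within 1 Mb of either end lie 76 genes, of which 40 were tested. In edgeR's quasi-likelihood test with Benjamini-Hochberg adjustment over all 15662 genes, 5 of these 40 passed the threshold of 0.05 in HSC and 1 in preGM, against 4.12% and 6.77% of all genes tested. The nearest tested gene, Ppp1r9b, which encodes the phosphatase-targeting scaffold spinophilin and starts 38.0 kb from Col1a1, had 28.7, 28.4 and 30.9 CPM in the WT HSC libraries and 50.6, 48.9 and 40.3 in the MLL HSC libraries. These HSC groups did not overlap, but the log2 difference of 0.67 ± 0.23 (SE, n = 3 per group) did not pass (adjusted p = 0.120, edgeR). In preGM the difference was 0.03 ± 0.23 (adjusted p = 0.958, edgeR). Here and below, an SE comes from the fit of all 12 libraries, and is not the spread of the compared groups alone.

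Among the neighbours of Col1a1, the pyruvate dehydrogenase kinase gene Pdk2 (chr11:95026258-95041354), 73.2 kb away, rose in preGM. It had 0.389, 0.140 and 0.598 CPM in WT preGM and 2.45, 0.910 and 1.08 in MLL preGM (log2 difference 1.92 ± 0.48 SE, adjusted p = 0.0241, edgeR). The preGM call was lost in 5 of 19 alternatives, among them without WT preGM replicate 1, without WT preGM replicate 2 and without MLL preGM replicate 1, and the difference was 1.00 without both libraries that stood apart (adjusted p = 0.186). In HSC its difference of 1.14 ± 0.42 did not pass (adjusted p = 0.155). The processed transcript B230206L02Rik (chr11:94133485-94155776), on the other side of Col1a1, had no count in the 3 WT HSC libraries. In MLL HSC it had 2.41, 1.71 and 1.45 CPM, with a mean 11.4-fold above the value of 3 counts per WT HSC library. In preGM its 6 libraries lay between 0 and 0.239 CPM, and the groups overlapped. The lincRNA Gm9796 (chr11:95696894-95699143) likewise had no count in WT HSC and 0.602, 0.478 and 0.637 CPM in MLL HSC, with a mean 3.51-fold above that floor. Yet it was present in all WT preGM libraries, at 0.508 to 0.513 CPM.

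The other genes near Col1a1 that passed in HSC changed by smaller steps. The zinc finger gene Zfp652 rose by 0.92 ± 0.23 and the actin regulator gene Abi3 by 1.45 ± 0.26 on the log2 scale (adjusted p = 0.0345 and 0.00498, edgeR), the call of Zfp652 being lost in 8 of 19 alternatives, among them without WT HSC replicate 1 or 2, any MLL HSC replicate, WT preGM replicate 1 or MLL preGM replicate 3 (adjusted p up to 0.140). These are annotated on opposite strands and overlap, with 75.8% of the exon bases of Abi3 shared with Zfp652, Phospho1 or Gngt2, and the counts take no account of strand, so their reads cannot be told apart. Eme1, a subunit of a DNA crossover junction endonuclease (chr11:94644996-94653964), fell from 46.8, 42.5 and 50.4 CPM to 28.2, 22.1 and 27.2 CPM (log2 difference -0.85 ± 0.20 SE, adjusted p = 0.0270, edgeR). The nucleotide kinase genes Nme1 and Nme2, within the same distance, had differences of -0.74 and -0.80 in HSC that did not pass (adjusted p = 0.279 and 0.260).

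Over the whole stretch, 40 of 742 tested genes passed in HSC, 38 of them higher in MLL cells, and 50 passed in preGM, 37 of them higher. These are 5.39% and 6.74% of the tested genes, against 4.12% and 6.77% over the genome, and 3.13% and 6.43% over the 607 tested genes on the rest of chromosome 11. Of the genes that passed in the stretch, 95.0% in HSC and 74.0% in preGM were higher in MLL cells. Over all genes that passed these shares were 77.4% and 54.6%, and on the rest of chromosome 11 they were 89.5% and 74.4%. The groups did not overlap for 37.3% of the genes in HSC and 26.6% in preGM, against 34.8% and 27.8% of all genes. The median log2 difference was 0.06 in HSC and 0.09 in preGM, beside 0.02 and 0.08 over all genes. The split by direction depended on the fit: in a fit of the HSC groups alone 74 genes were higher and 63 lower, and with DESeq2 49 and 19. In preGM, scaling by library size alone gave 49 higher and 8 lower. Leaving out both libraries that stood apart raised the HSC count to 177, with 93 higher, and left the preGM count at 53, with 35 higher. The share over all genes moved alike, with 23.8% in the stretch against 21.3% of all genes in HSC and 7.13% against 7.14% in preGM. For the difference of the responses (preGM minus HSC), 25 genes passed (3.37% against 3.13% of all genes).

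Genes that passed in both cell types in the same direction were more frequent. There were 12, or 1.62% of those tested, against 0.734% of all genes and 0.659% (4 of 607) on the rest of chromosome 11. All 12 were higher in MLL cells, where 0.587% of all tested genes were. The ratio of the share in the stretch to that of all genes was smaller in some fits and larger in others. Without WT HSC replicate 3 the shares were 1.54% and 0.571%. Leaving out both libraries that stood apart gave 15 genes, all higher, or 2.02% against 1.69% of all genes, and DESeq2 gave 18, of which 14 were higher, or 2.43% against 1.38%. Leaving out 1 library at a time gave 7 to 13, the lowest without WT preGM replicate 1. In order along the chromosome the 12 genes are Nlrp1b, Aspa, AA465934, Cuedc1, Msi2, C030037D09Rik, Elobl, Rapgefl1, Etv4, Gm16342, Adam11 and Rab37.

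**Figure D1:**
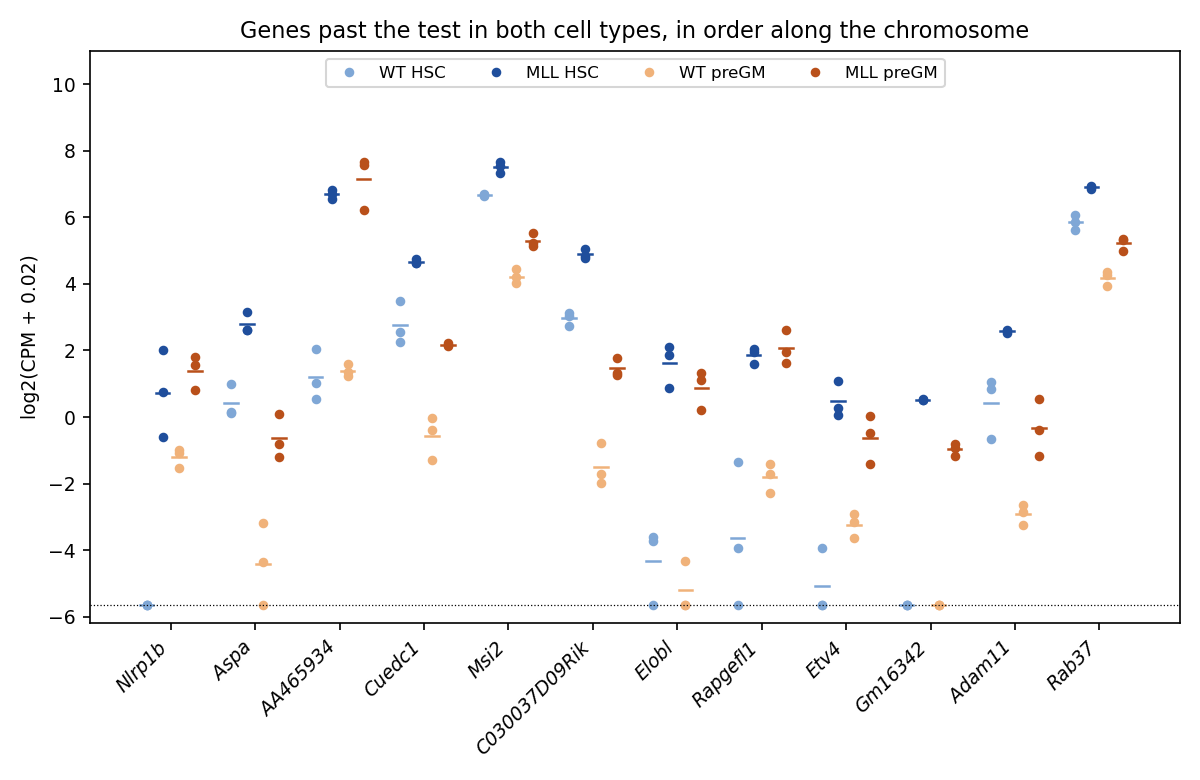
Levels of the 12 genes that passed in both cell types, as log2(CPM + 0.02), for each library (points) with the group mean (line). The dotted line is a level of 0. For every gene the 3 MLL libraries lie above the 3 WT libraries of the same cell type, by about 1 log2 unit for Msi2 and Rab37 and by more than 5 for AA465934 and Elobl.

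Elobl (chr11:88964658-88966931, minus strand), whose coding start is printed above, came closest to a switch. Its main exon had 1, 0 and 1 counts in WT HSC and 57, 84 and 115 in MLL HSC, and 1, 0 and 0 counts in WT preGM and 54, 68 and 70 in MLL preGM. At gene level this was a mean of 0.0392 against 3.23 CPM in HSC and 0.00996 against 1.92 CPM in preGM, with log2 differences of 6.32 ± 0.83 and 6.97 ± 0.89 (SE, n = 3 per group; adjusted p = 0.00054 and 0.000151, edgeR). Exons with at most 2 counts in each library of 1 genotype and at least 20 in each library of the other, in both cell types and in the same direction, numbered 2 in the genome (0.000576% of all exon intervals), and both were forms of this Elobl exon. That depended on the limit. With at most 5 counts, exons of Gm7785 (chromosome 1), Gm15610 and Gm13841 (chromosome 5) and Smarca2 (chromosome 19) met the rule too. The shares were then 0.0121% in the stretch and 0.00202% of all exon intervals. With the limit of 2 counts, 10 exons of the stretch met the rule in HSC alone (0.0607% against 0.0305% of all exon intervals) and 4 in preGM (0.0243% against 0.0205%), all of them read in MLL libraries. Such exons, in either cell type, belonged to Nlrp1b, Slfn8, Cuedc1, Elobl, Grb7, Etv4 and Gm16342. The related gene Elob on chromosome 17 matches the coding sequence of Elobl at 256 of 354 bases (72.3%) compared without gaps from the start codon, with at most 21 matching bases in a row. Elob did not pass in either cell type, with log2 differences of -0.73 ± 0.39 and -0.74 ± 0.39.

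AA465934 (chr11:83291699-83294632) had the highest level in MLL cells among the genes with a large difference. It had 2.01, 1.45 and 4.13 CPM in WT HSC and 112, 93.9 and 103 in MLL HSC, and 2.33, 2.98 and 2.51 CPM in WT preGM and 74.0, 203 and 189 in MLL preGM. The groups were far apart in both cell types, with log2 differences of 5.37 ± 0.44 and 5.90 ± 0.45 (SE; adjusted p = 1.24e-05 and 6.94e-07, edgeR). The gap held along the transcript: the internal exon printed above had 18, 19 and 19 counts in WT HSC and 1737, 1176 and 1355 in MLL HSC, and the last exon 13, 9 and 34 against 1024, 614 and 825.

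Gm16342 (chr11:102732405-102752861) had no exon count in any of the 6 WT libraries. In MLL HSC it had 1.39, 1.43 and 1.42 CPM and in MLL preGM 0.508, 0.423 and 0.552. Its means were 8.69-fold and 4.71-fold above 3 counts per WT library of the same cell type. Its introns, a readout outside the gene test, had 49, 7 and 60 counts in WT HSC and 720, 590 and 535 in MLL HSC, and 3, 0 and 0 against 171, 154 and 211 in preGM. Intron reads were thus present in WT HSC where exon reads were not. Its neighbour Adam11 (chr11:102761439-102780262), which encodes a membrane protein of the disintegrin and metalloprotease family, lies next along the chromosome. Adam11 had 0.615, 1.77 and 2.03 CPM in WT HSC and 5.70, 5.97 and 6.09 in MLL HSC, and 0.120, 0.140 and 0.0854 CPM against 1.43, 0.423 and 0.746 in preGM. Its log2 differences were 2.0 ± 0.50 and 2.92 ± 0.61 (adjusted p = 0.0341 and 0.00766, edgeR), the HSC call being lost without WT HSC replicate 1 or 2, any MLL HSC replicate or WT preGM replicate 1.

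Etv4 (chr11:101769742-101785371) encodes an ETS-family transcription factor. It had 0, 0.0453 and 0 CPM in WT HSC and 1.01, 1.2 and 2.09 in MLL HSC, a log2 difference of 6.05 ± 0.98 (SE, adjusted p = 0.00233, edgeR). In preGM its levels were 0.0598, 0.0932 and 0.114 CPM against 0.998, 0.358 and 0.691 (2.89 ± 0.75, adjusted p = 0.0273), a call lost in 7 of 19 alternatives: with the replicate block, without any 1 of the preGM libraries other than MLL preGM replicate 2, and without both libraries that stood apart (adjusted p = 0.166, the highest). The stretch from Etv4 to Adam11 holds 27 tested genes, and the other genes of it that passed did so in 1 cell type: Lsm12 and Rundc3a rose in HSC and Itga2b rose in preGM.

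Rapgefl1 (chr11:98836785-98853697), related to exchange factors of small GTPases, is the nearest of the 12 to Col1a1, at 3.88 Mb. Its levels were 0, 0.0453 and 0.369 CPM in WT HSC and 3.83, 4.06 and 3.01 in MLL HSC, and 0.359, 0.186 and 0.285 CPM against 6.06, 3.06 and 3.84 in preGM. The log2 differences were 4.78 ± 0.72 and 3.92 ± 0.62 (SE; adjusted p = 0.00132 and 0.000967, edgeR). Most of its reads lay in the last exon (chr11:98851076-98853697), with 0, 1 and 6 counts in WT HSC and 113, 84 and 81 in MLL HSC.

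Nlrp1b (chr11:71153102-71230733) encodes a sensor of the inflammasome, is known to differ in sequence between mouse strains, and lies 23.7 Mb from Col1a1. It had no count in WT HSC and 1.68, 4.02 and 0.637 CPM in MLL HSC, with a mean 13.0-fold above 3 counts per WT HSC library. In preGM the levels were 0.478, 0.326 and 0.456 CPM in WT and 3.45, 1.72 and 2.93 in MLL (log2 difference 2.66 ± 0.65 SE, adjusted p = 0.0246, edgeR), a call lost without any 1 of the preGM libraries other than MLL preGM replicate 2 and without both libraries that stood apart (adjusted p = 0.144, the highest). The reads of the genotypes lay in different exons. The exon chr11:71228317-71228626, at the start of the gene, had 10, 6 and 9 counts in WT preGM and 1, 0 and 1 in MLL preGM. The last exon, chr11:71153102-71153535, had 1, 0 and 1 counts in WT preGM and 27, 24 and 36 in MLL preGM.

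Nlrp1a, the adjacent paralogue, had means of 0.86 and 0.13 CPM in WT and MLL HSC and 2.39 and 0.73 CPM in preGM. Its log2 differences of -2.72 and -1.69 did not pass with edgeR (adjusted p = 0.0662 and 0.144), and they did with DESeq2 (-2.77 and -1.74, adjusted p = 0.00729 and 0.0451). Whether reads were split between these paralogues was not tested, and their levels are uncertain to that extent.

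Aspa (chr11:73304992-73329596), the gene of the N-acetylaspartate-cleaving enzyme aspartoacylase, had 1.06, 1.09 and 1.97 CPM in WT HSC and 6.08, 6.09 and 8.92 in MLL HSC. In preGM it had 0.0897, 0 and 0.0285 CPM in WT and 0.414, 1.04 and 0.552 in MLL. The log2 differences were 2.36 ± 0.49 and 3.79 ± 0.70 (SE; adjusted p = 0.0130 and 0.00314, edgeR), the HSC call being lost without WT HSC replicate 1, WT HSC replicate 2 or MLL HSC replicate 3 (adjusted p up to 0.0677). Rab37, a vesicle-traffic GTPase gene 20.1 Mb from Col1a1 (chr11:115091431-115162236), rose about equally in both cell types, from 49.4, 57.9 and 67.1 to 121, 120 and 116 CPM in HSC and from 15.4, 20.4 and 19 to 31.9, 40.8 and 39.7 CPM in preGM. Its log2 differences were 1.03 ± 0.22 and 1.04 ± 0.22 (adjusted p = 0.0124 and 0.00735). The HSC call of Rab37 was lost without WT HSC replicate 1, WT HSC replicate 2 or MLL HSC replicate 1 (adjusted p up to 0.0717), and its preGM call without WT preGM replicate 1 (adjusted p = 0.0593).

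A run of 4 of the 12 genes, Cuedc1, Msi2, C030037D09Rik and Elobl, lies within 869 kb, about 6 Mb before Col1a1, among 10 tested genes. The ends of this run are those of Cuedc1 and Elobl, both called genes, so 4 of 10 follows in part from how the ends were chosen. Only 131 bases lie between the starts of Msi2 and C030037D09Rik, so the 4 calls need not be independent. The window from 85 to 90 Mb held all 4, or 6.45% of its 62 tested genes. It ranked 8th by share and first by count among the 431 windows of 5 Mb in the genome with at least 10 tested genes, and 82 of these windows held any such gene. Cuedc1 (chr11:88098058-88194140) rose from 11.1, 4.76 and 5.85 to 24.5, 24.7 and 26.7 CPM in HSC and from 0.389, 0.745 and 0.968 to 4.42, 4.36 and 4.61 CPM in preGM (log2 1.81 ± 0.33 and 2.67 ± 0.37 SE, adjusted p = 0.00568 and 0.000339, edgeR). The exon printed above, in its form from 88187061 to 88187132, had 2, 1 and 1 counts in WT HSC and 47, 41 and 24 in MLL HSC.

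Msi2 (chr11:88339382-88718513) encodes the RNA-binding protein Musashi-2, known for its part in stem cell renewal and myeloid leukaemia. It had 104, 99.7 and 102 CPM in WT HSC and 184, 160 and 204 in MLL HSC, and 16.2, 21.8 and 18.3 CPM in WT preGM and 45.9, 37.2 and 34.9 in MLL preGM. The groups did not overlap, with log2 differences of 0.85 ± 0.22 and 1.07 ± 0.22 (SE; adjusted p = 0.0387 and 0.00652, edgeR). Among the 12 genes its HSC call was lost most often, in 11 of 19 alternatives, with adjusted p up to 0.149. Its introns rose by more than its exons: 729, 742 and 675 counts in WT HSC stood against 2942, 2924 and 2168 in MLL HSC, and 138, 122 and 97 against 1453, 369 and 466 in preGM. Over the whole library, introns had 3.72 to 4.1 counts per 100 gene counts in WT HSC and 4.79 to 5.96 in MLL HSC, and 1.24 to 2.02 against 1.49 to 3.5 in preGM, and the part of this in the intron values was not tested.

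C030037D09Rik (chr11:88718645-88728893) lies next to Msi2 on the opposite strand, and both genes point away from a short stretch between them. The 131 bases between the annotated starts, chr11:88718514-88718644 in RefSeq's sequence of GRCm38.p6 on the plus strand, have a GC content of 74.8% and 15 CpG sites, in capitals.
Msi2 to C030037D09Rik: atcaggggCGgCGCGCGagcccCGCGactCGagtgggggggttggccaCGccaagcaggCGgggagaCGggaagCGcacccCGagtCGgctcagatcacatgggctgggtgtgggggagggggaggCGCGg

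Summed over its exons, C030037D09Rik rose from 8.78, 6.57 and 8.13 to 32.9, 28.7 and 27.2 CPM in HSC and from 0.568, 0.233 and 0.285 to 2.5, 3.41 and 2.38 CPM in preGM. The log2 differences were 1.92 ± 0.28 and 2.88 ± 0.34 (SE; adjusted p = 0.00127 and 7.72e-05, edgeR). Its 3′ end differed from the rest. The large exon chr11:88719754-88722600 had 34, 42 and 44 counts in WT HSC and 934, 605 and 655 in MLL HSC, and 8, 2 and 5 against 104, 89 and 79 in preGM. The last exon, chr11:88728159-88728893, had 86, 69 and 62 counts in WT HSC and 9, 10 and 10 in MLL HSC, and 7, 2 and 2 against 2, 1 and 0 in preGM. By the test of the exon's own level it fell in HSC (log2 -3.53 ± 0.56 SE, adjusted p = 0.00466, edgeR). In preGM the groups overlapped and it did not pass (-2.24 ± 0.81, adjusted p = 0.190).

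**Figure D2:**
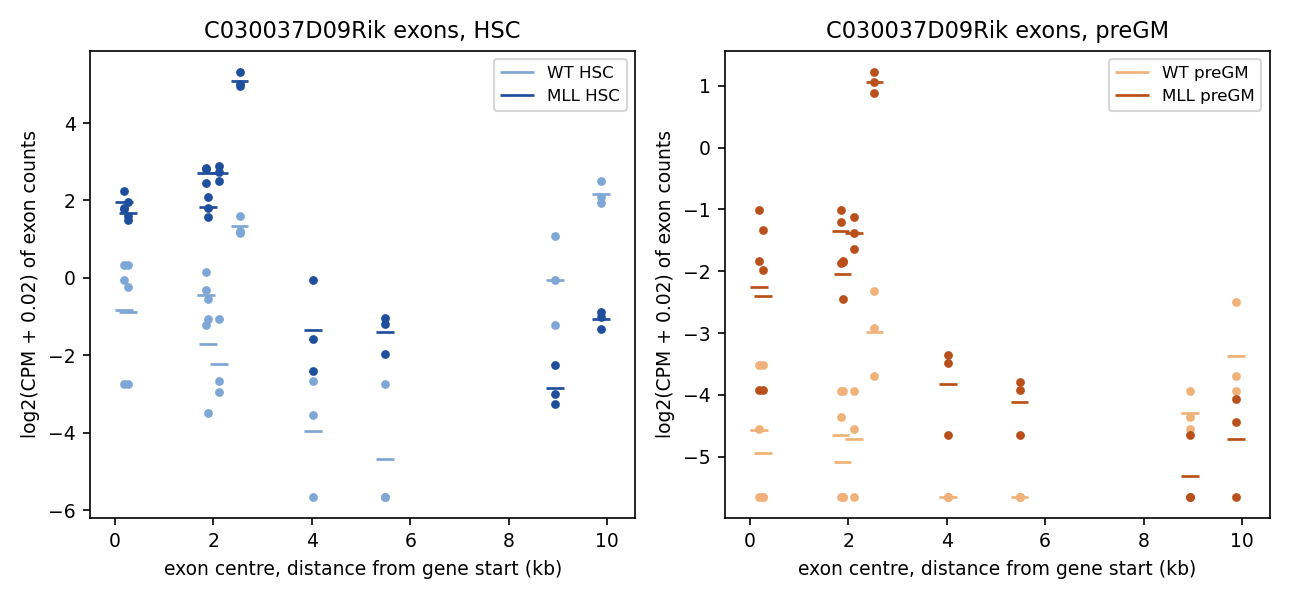
Exon counts of C030037D09Rik, as log2(CPM + 0.02), against the distance of the exon's centre from the gene's start in kb, in HSC (left) and preGM (right). Points are libraries and lines are group means; overlapping forms of an exon are drawn separately. MLL means lie above WT means over the first 6 kb, and WT means lie above MLL means at the last 2 exons, near 9 and 10 kb.

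Relative to the other exons of its gene (edgeR's diffSpliceDGE, 79165 exons tested), that last exon was lower in MLL, with a log2 value of -5.41 in HSC and -4.95 in preGM (adjusted p = 2.95e-06 and 0.00815). It was the only exon of the stretch past this test in both cell types, of 3758 tested (0.0266%), where 0.00884% of all exons tested were. In HSC alone 6 exons of the stretch passed (0.160% against 0.072%), and in preGM 2 (0.0532% against 0.0227%). Leaving out both libraries that stood apart gave 47 exons in HSC (1.31% against 0.908%) and 0 in preGM (against 0.0421%), where leaving out 1 library at a time gave 0 to 2. The other exons that passed in HSC belong to C030037D09Rik, Slfn8, Med1 and Ramp2, with 2 of Ramp2. An exon of Arl5c (chr11:97989578-97990339) passed in preGM with a value of -3.22, and had a value of 3.08 in HSC that did not pass (adjusted p = 0.0605).

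The Slfn8 exon has a near copy in Slfn9. Slfn8 and Slfn9 are Schlafen genes, a family induced by interferon, that lie side by side on the minus strand. An exon of each, chr11:83019913-83020028 in Slfn8 and chr11:82990942-82991057 in Slfn9, is 116 bases long. These sequences match at 114 bases (98.3%) and differ by G21A and G103A, with the Slfn8 base first and positions counted from 1 at the exon's 5′ end. The longer annotated forms, of 196 bases, moved in opposite directions. In Slfn8 the counts were 0, 0 and 1 in WT HSC and 24, 42 and 35 in MLL HSC, and in Slfn9 61, 50 and 19 in WT HSC and 6, 7 and 8 in MLL HSC. Summed over both genes, the counts were 61, 50 and 20 in WT HSC and 30, 49 and 43 in MLL HSC, and the groups overlapped. In preGM the Slfn8 form had 3, 4 and 1 against 25, 11 and 23 counts and the Slfn9 form 36, 22 and 27 against 9, 0 and 4, and the sums of 39, 26 and 28 against 34, 11 and 27 also overlapped. Where reads of these exons were placed was not tested, so the split between both genes is uncertain. The Slfn9 form passed the exon test in both cell types (log2 -3.21 ± 0.68 and -3.38 ± 0.71 SE, adjusted p = 0.0280 and 0.0158, edgeR). Slfn9 as a whole gene did not pass (log2 -0.32 in HSC and -0.51 in preGM).

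Read exon by exon, the picture of the stretch was much the same. Of 6813 tested exons, 108 passed in HSC, 98 of them higher in MLL, and 108 passed in preGM, 66 of them higher. Both counts are 1.59% of the exons, against 1.02% in HSC and 1.57% in preGM over all 132365 tested exons. On the rest of chromosome 11 the shares were 0.904% and 1.48%. Of the exons that passed in the stretch, 90.7% in HSC and 61.1% in preGM were higher in MLL. Over all exons that passed these shares were 82.6% and 32.4%, and on the rest of chromosome 11 they were 95.9% and 78.75%. The groups did not overlap for 31.9% of the exons in HSC and 22.8% in preGM, against 30.7% and 21.6% of all exons. The HSC split turned with the fit, to 302 higher and 314 lower when the HSC groups were fitted alone, to 207 and 66 with DESeq2, and to 519 and 562 of 1081 without both libraries that stood apart (16.6% against 15.6% of all exons). In preGM library size scaling gave 91 higher and 26 lower, limma on the authors' RPKM gave 66 and 17, and leaving out both libraries gave 172 exons with 106 higher (2.65% against 2.84%). For the difference of the responses, 52 exons passed (0.763% against 0.678%), and 387 did without both libraries (5.96% against 6.21%).

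In both cell types and the same direction, 28 exons passed (0.411%), against 0.125% of all exons and 0.258% (14 of 5423) on the rest of chromosome 11. Of these, 26 were higher in MLL, where 0.0914% of all exons were. Without both libraries that stood apart the count was 55, with 44 higher (0.847% against 0.570% of all exons), and with DESeq2 55, with 39 higher (0.807% against 0.388%), so the ratio to the genome was smaller than in the fit of all libraries with edgeR. The 28 exons come from only 9 genes, and 13 of them are overlapping forms of AA465934 exons. C030037D09Rik gave 3, Elobl, Lgals3bp, Nlrp1b, Rapgefl1 and Slfn9 gave 2 each, and Cuedc1 and Msi2 gave 1 each. Among exons that overlap no other exon, 0 passed in both cell types with edgeR, against 0.0970% of all such exons. In HSC 22 of them passed (1.11% against 0.916%) and in preGM 24 (1.21% against 1.61%). Lgals3bp and Slfn9 are the genes seen at this level and not among the 12. For Lgals3bp, a secreted glycoprotein gene 23.4 Mb from Col1a1, the exon chr11:118398121-118398571 had 91, 177 and 72 counts in WT HSC and 633, 721 and 661 in MLL HSC, and 131, 15 and 184 against 862, 297 and 358 in preGM.

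**Figure D3:**
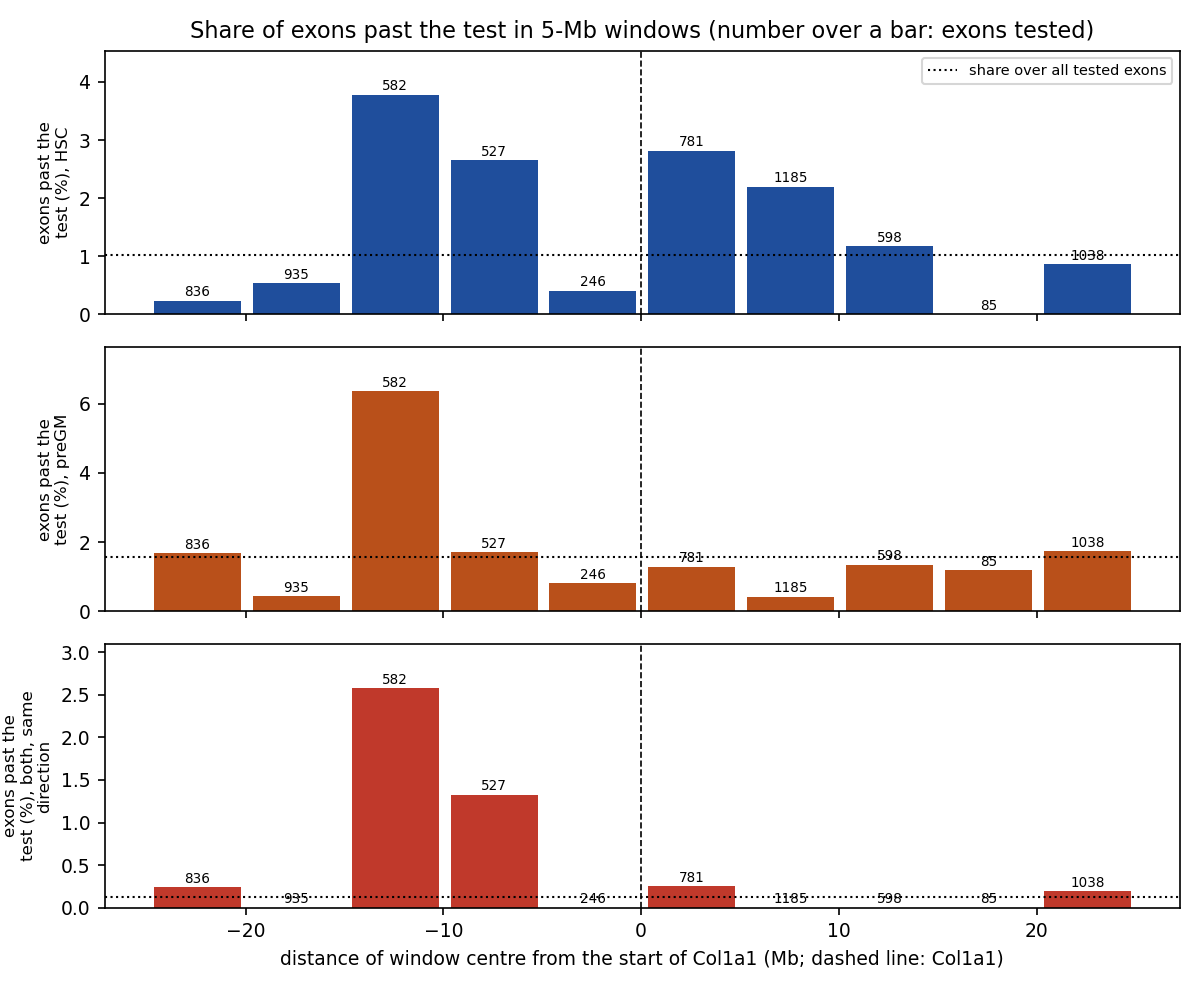
Share of tested exons past the exon test, in percent, in 5-Mb windows against the distance of the window's centre from the start of Col1a1 in Mb, for HSC (top), preGM (middle) and both cell types in the same direction (bottom). The number over each bar is the exons tested and the dotted line is the share over all exons tested. The highest bars for both cell types, 2.58% and 1.33%, lie in the third and the fourth windows, before Col1a1, and the windows on either side of Col1a1 reach 0% and 0.256%.

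Along the stretch, the exons that passed in both cell types gathered in a few places. The window from 80 to 85 Mb held 15 of 582 tested exons (2.58%), ranked 4th of the 458 windows in the genome with at least 50 tested exons, and the window from 85 to 90 Mb held 7 of 527 (1.33%), ranked 11th. In windows of 1 Mb, 13 of 172 exons between 83 and 84 Mb passed, all of AA465934, and 7 of 122 between 88 and 89 Mb. Between Elobl and Rapgefl1, from 5.97 Mb before Col1a1 to 3.88 Mb after it, lie 124 tested genes. These bounds are the nearest genes called in both cell types, so that no gene between them was called in both with edgeR follows from how they were chosen. In HSC 9 of the 124 passed and in preGM 5, where 4.12% and 6.77% of all genes did. Before Col1a1 7 of 330 tested genes passed in both cell types and after it 5 of 412. Across the 742 genes, which are not independent, the absolute log2 difference had a Spearman correlation with distance from Col1a1 of -0.07 in HSC and 0.01 in preGM, and across the 6813 exons of -0.01 and 0.01. These values are a description only.

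**Figure D4:**
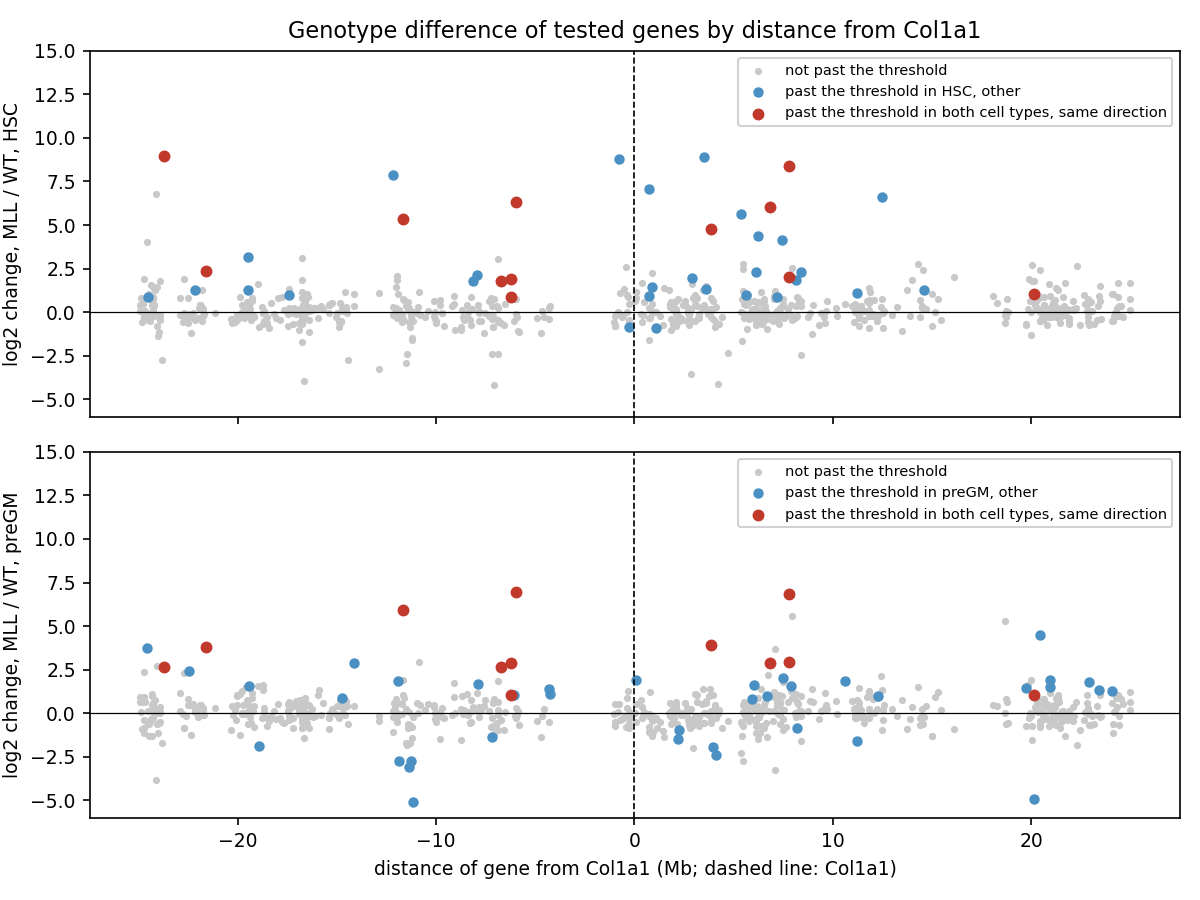
Log2 difference between MLL and WT for the 742 tested genes against distance from Col1a1 in Mb, in HSC (top) and preGM (bottom). Red points are the 12 genes past the threshold in both cell types, blue points other genes past it in that cell type, and grey points the rest. The red points lie between 23.7 Mb before and 20.1 Mb after Col1a1, with none from 5.97 Mb before to 3.88 Mb after it.

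Several large differences belonged to HSC. Grb7, an adaptor of receptor tyrosine kinases (chr11:98446394-98455373), had no count in WT HSC or in any preGM library. In MLL HSC it had 1.77, 2.55 and 1.73 CPM, with a mean 12.4-fold above 3 counts per WT HSC library. Cct6b, a chaperonin subunit gene (chr11:82719250-82764321), had no count in WT HSC and 0.982, 1.2 and 0.849 CPM in MLL HSC, with a mean 6.19-fold above that floor. In preGM Cct6b had 0.508, 2.42 and 1.08 CPM in WT and 0.621, 0.878 and 0.414 in MLL, and the groups overlapped. Snf8, a subunit of the ESCRT-II complex of endosomal sorting (chr11:96034885-96047430), fell from 57.9, 54.7 and 59.6 to 26.8, 33.1 and 33.6 CPM in HSC (log2 -0.88 ± 0.23 SE, adjusted p = 0.0394, edgeR). Snf8 and Eme1 were the 2 genes of the stretch lower in MLL HSC, and their calls were lost in 12 and 9 of 19 alternatives, among them library size scaling.

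The falls with the lowest log2 values in the stretch were in preGM. Wfdc21, a small secreted whey-acidic-type protein gene (chr11:83746940-83752642), fell from 305, 559 and 232 to 5.57, 12.8 and 14.1 CPM (log2 -5.08 ± 0.49 SE, adjusted p = 1.01e-05, edgeR). Cd300lf, an inhibitory receptor gene of myeloid cells (chr11:115116214-115133992), fell from 23.7, 10.5 and 21.8 to 0.339, 0.878 and 0.663 CPM (-4.92 ± 0.61, adjusted p = 0.000130). The chemokine gene Ccl6 (chr11:83587882-83593087) fell from 218, 389 and 288 to 14.9, 50.3 and 41.4 CPM (-3.07 ± 0.37, adjusted p = 9.9e-05). Slfn2, a Schlafen gene known for a part in immune cell quiescence (chr11:83065112-83070678), fell from 103, 63.0 and 115 to 11.6, 12.1 and 17.9 CPM (-2.76 ± 0.28, adjusted p = 1.45e-05). Among the markers of the preGM gate, Elane went from 11933 to 2275 CPM on average, Ctsg from 2562 to 1080 and Fcgr3 from 208 to 36.1, while Mpo went from 5256 to 7961 and Kit from 26.9 to 53.0. The part of these differences in the result was not tested. In HSC none of these 4 genes passed, with log2 differences of 0.00, 1.78, -0.54 and 0.14.

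Ccl4, a chemokine gene (chr11:83662584-83664683), was high in 1 library, WT preGM replicate 2. It had 13.4, 109 and 11.2 CPM in WT preGM and 3.80, 7.28 and 8.59 in MLL preGM (log2 -2.76 ± 0.65 SE, adjusted p = 0.0173, edgeR), and the call was lost in 5 of 18 alternatives. The difference was -0.92 without WT preGM replicate 2 (adjusted p = 0.171), -2.48 without MLL preGM replicate 1 (adjusted p = 0.103) and -0.64 without both (adjusted p = 0.247), and the call was also lost without the filter and in a fit of the preGM groups alone. The tensin gene Tns4 (chr11:99065678-99089306) fell from 5.35, 6.57 and 5.27 to 0.904, 0.845 and 1.52 CPM (-2.39 ± 0.54, adjusted p = 0.0120; 0.0897 without both libraries, and also lost without WT preGM replicate 1, WT preGM replicate 2 or MLL preGM replicate 1). Among rises, Cdr2l (chr11:115381916-115396132) went from 0, 0 and 0.0285 to 0.245, 0.358 and 0.414 CPM (4.49 ± 1.14, adjusted p = 0.0261; 0.0758 without both libraries, and also lost without any 1 of the WT preGM libraries or MLL preGM replicate 3, up to 0.120).

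Gene families of the stretch were read from lists chosen with earlier results of these data known. For comparison, 4.12% of all tested genes passed in HSC and 6.77% in preGM with edgeR, and 8.54% and 11.1% with DESeq2. An unadjusted p under 0.05 (edgeR) was found for 2887 of all 15662 tested genes in HSC and 3663 in preGM. Of 7 tested CC chemokine genes, which attract leukocytes, 2 fell in preGM (Ccl4 and Ccl6), where DESeq2 called 1 and gave no adjusted p for Ccl4, and none passed in HSC with edgeR or DESeq2 (0 at an unadjusted p under 0.05), with list medians of -0.20 in HSC and -0.86 in preGM beside 0.02 and 0.08 over all genes. Of 6 tested Schlafen genes, 1 rose (Slfn8, 1.83 ± 0.37) and 1 fell (Slfn2) in preGM, and none passed in HSC with edgeR or DESeq2 (2 at an unadjusted p under 0.05). Of 7 tested CD300 receptor genes, 1 fell in preGM with edgeR (Cd300lf), and 4 had an unadjusted p under 0.05 there. DESeq2 called 2 lower in preGM, Cd300lf and Cd300lg (log2 -3.27 and adjusted p = 0.0101 for Cd300lg). None passed in HSC with edgeR or DESeq2 (1 at an unadjusted p under 0.05). The list medians were 1.21 in HSC and -0.74 in preGM. The peroxidase genes Mpo and Epx did not pass with edgeR or DESeq2 in either cell type, nor at an unadjusted p under 0.05. Mpo, the neutrophil granule enzyme, had 5743, 2434 and 7591 CPM in WT preGM and 12114, 5354 and 6415 in MLL preGM, and the groups overlapped.

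Of 3 STAT genes, which carry cytokine signals to the nucleus, Stat5a rose in preGM, from 19.5, 19.7 and 20.5 to 43.0, 31.1 and 30.9 CPM (log2 0.81 ± 0.21 SE, adjusted p = 0.0255, edgeR), a call lost in 4 of 19 alternatives, among them without WT preGM replicate 1 or 3 (adjusted p up to 0.123). Among 14 chromatin genes, Cbx2, a Polycomb subunit, rose in preGM (1.26 ± 0.36, adjusted p = 0.0479), a call lost in 12 of 19 alternatives (adjusted p up to 0.171), among them the omission of any 1 library but WT HSC replicate 2, WT HSC replicate 3 and WT preGM replicate 2, and none passed in HSC with edgeR (3 at an unadjusted p under 0.05), where DESeq2 called 2 lower. In preGM DESeq2 called Cbx2 higher and H3f3b lower (log2 -0.58, adjusted p = 0.0443, for H3f3b). There 5 of the 14 genes had an unadjusted p under 0.05 with edgeR, and 6.77% of all tested genes passed with edgeR. The list medians were -0.28 and 0.02. None of 9 proliferation genes passed in either cell type with edgeR (3 in HSC and 1 in preGM at an unadjusted p under 0.05), and DESeq2 called 1 lower in HSC, with medians of -0.54 in HSC and 0.27 in preGM. None of 4 tested cytokine and feedback genes passed with edgeR or DESeq2 (1 in HSC at an unadjusted p under 0.05), with medians of 0.29 and -0.04. Of 4 tested stem cell and leukaemia genes, Msi2 rose in both cell types and Rara, the retinoic acid receptor gene, fell in preGM, from 4.54, 6.75 and 3.87 to 1.45, 1.2 and 1.3 CPM (-1.93 ± 0.44, adjusted p = 0.0130; 0.0706 at most, without WT preGM replicate 2 or both libraries that stood apart). Itga2b, which encodes CD41, a protein that the preGM gate excludes, rose in preGM from 3.44, 3.87 and 4.16 to 29.0, 7.97 and 9.25 CPM (2.02 ± 0.39, adjusted p = 0.00446). The highest of these values was that of MLL preGM replicate 1, a library that stood apart. The endothelial genes Pecam1 and Icam2 did not pass with edgeR or DESeq2 (1 in preGM at an unadjusted p under 0.05).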

How the data were processed

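RNA was sequenced from 12 libraries, 3 for each genotype and cell type, made from sorted and cultured cells with the RNeasy micro and SMARTer low-input kits, per the labels' protocols. The authors deposited whole-number counts and RPKM values for exons and introns of each transcript; the submitters' processing notes name TopHat2 2.0.8, Bowtie2 2.1.0, HTSeq and edgeR, without roles, and no source used here names the genome build. The transcripts were matched to GENCODE M21 (GRCm38), and 89664 of 93615 (95.8%) were found. The deposited counts take no account of strand: at 582 of 582 chromosome 11 exons that lie in introns of a gene on the other strand, the intron count held at least the exon's count.

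Each exon interval was taken once, and gene counts were summed over non-overlapping exons. Both were tested over the whole genome with edgeR 4.0.16 (R 4.3.3): TMM scaling, filterByExpr with a minimum count of 10 and a total of 15, a robust quasi-likelihood fit with 1 mean per group over all 12 libraries, and Benjamini-Hochberg adjustment with a threshold of 0.05. Each SE is the absolute log2 difference divided by the square root of the test's F value. Exon usage was tested with diffSpliceDGE. A library's floor is 3 counts, 0.0790 to 0.163 CPM as group means. A fold above the floor divides the mean of the MLL group by the WT floor of the same cell type. Floors cover counting error only. The biological coefficient of variation was 0.320 for genes and 0.416 for exons. The statistics were also run on simulated data, with changes set only in features of higher count. Those data held no difference between cell types and no library set apart from its group. They therefore do not show how well differences at low counts are found. The members, gene lists and tests were chosen with earlier results of these data known. Genes were named if they had the largest changes per cell type (up to 6 each way), passed in both cell types (the 10 with the largest smaller change), had near on-off exons, were tested within 1 Mb of Col1a1, had exons past the usage test in both cell types, or stood on the lists; Msi2 and Rab37 were added so that all 12 genes are given. Other genes and exons, among them Lgals3bp, Limd2, Akap1, Elob, Lsm12, Rundc3a and the Slfn9 exon, were chosen after their values were seen. Alternatives were library size scaling, other filters, a replicate block, fits of 1 cell type, exons without overlap, libraries left out, DESeq2 1.42.0 and limma 3.58.1 on the authors' RPKM (log2 with a pseudocount of 0.1).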

Additional observations from a re-analysis of the deposited data

Results flagged for a closer look

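The genotype difference itself differed between the cell types for 12 of the named genes, by the test of preGM minus HSC responses (edgeR, adjusted over all genes). A value below 0 means that the log2 difference between MLL and WT was lower in preGM. The lowest values were -8.94 for Cct6b (adjusted p = 0.00458), -8.26 for B230206L02Rik and -8.13 for Gm9796, each without a count in WT HSC, so the fitted size depends on the prior count. Wfdc21 had -5.08, Cd300lf -6.7, Ccl6 -2.53 and Slfn2 -2.9, all with a fall in preGM. Limd2, a LIM domain gene, turned direction with both calls past the threshold: it went from 26.0, 36.4 and 36.8 to 70.9, 74.7 and 68.3 CPM in HSC and from 133, 163 and 114 to 37.2, 50.9 and 50.4 CPM in preGM, an interaction of -2.67 (adjusted p = 0.000296). Abi3 had -1.84 (adjusted p = 0.0105) and Rara -2.59 (adjusted p = 0.0294). Itga2b, with 2.16 (adjusted p = 0.0353), and the kinase-anchoring gene Akap1, with 1.56 (adjusted p = 0.0247), rose in preGM relative to HSC.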

How the results depend on the processing

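Counts of calls moved with the fit, and so did their split by direction, as given above. Of 910 results of named genes under an alternative, 797 kept the call, 113 lost it and 0 reversed. These results cover genes already past the threshold, refitted on largely the same libraries. Reversals were therefore unlikely from the outset, and their absence says little. Of the 12 genes called in both cell types, AA465934, C030037D09Rik, Cuedc1, Elobl, Gm16342 and Rapgefl1 lost no call under the alternatives run. The 108 exons in HSC became 71 with library size scaling, 1081 without both libraries that stood apart, 616 with the HSC groups alone, 22 among exons without overlap, 273 with DESeq2, and 36 to 236 without 1 library. The 108 exons in preGM became 172, 55 (preGM groups alone), 24 and 279, and 73 to 129. The 28 exons in both became 55 without both libraries, 0 among exons without overlap, 55 with DESeq2, and 19 to 35. The 52 exons that differed between cell types became 387, 105 with DESeq2, and 28 to 86. The 40 genes in HSC became 177 without both libraries, 137 with the HSC groups alone, 68 with DESeq2, and 22 to 71. The 50 genes in preGM became 80 with DESeq2 and 29 to 67, and the 12 in both became 7 to 13. Usage calls in HSC (6) became 3 with a minimum count of 30, 47 without both libraries, and 2 to 17. Usage calls in preGM (2) became 0 with library size scaling, 4 with that minimum count, 0 without both libraries, and 0 to 2. Near on-off exons (2) became 4 with at least 10 counts, and 2 to 4. The cause was not tested. Library size scaling moved the median of all genes by 0.19 in HSC and 0.32 in preGM.

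Deviations of same-numbered WT and MLL replicates from their group means correlated at -0.01 to 0.01 in HSC and -0.07 to 0.10 in preGM. Differently numbered replicates correlated at -0.02 to 0.03 and -0.14 to 0.14. With 3 libraries per group, and 2 in preGM that stood apart, this cannot show whether same-numbered samples were prepared together. With the replicate as a block, exons called were 119 in HSC, 126 in preGM, 35 in both and 45 for the difference; genes 36, 48 and 11; usage exons 2 and 0. Low counts limit Gm9796, Cct6b, Gm16342, Cdr2l and the preGM usage call of C030037D09Rik. Few WT counts limit the fitted size for Elobl in both cell types and for Nlrp1b and Etv4 in HSC.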

Other observations

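Outside the stretch, 6 exons changed relative to their gene in both cell types, and their values are given without an explanation. The exon of Gt(ROSA)26Sor on chromosome 6, from 113070398 to 113071435, had 708, 627 and 436 counts in WT HSC and 64, 10 and 16 in MLL HSC, and 1148, 382 and 1336 against 34, 22 and 59 in preGM. The Rosa26 locus is a widely used landing site for transgenes. Its usage values were -2.29 in HSC and -2.50 in preGM (adjusted p = 0.0126 and 0.00542, edgeR's diffSpliceDGE). The other exons were those of Usp34, on chromosome 11 before the stretch (2.28 and 2.23), Zfp748 (-3.95 and -3.90), Irak4 (-2.78 and -3.32), Smarca2 (4.72 and 3.65) and Spg11 (-8.61 and -4.09).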
